A study of Schizosaccharomyces pombe with 3 samples.

Results

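The *dhp1-1* and *din1Δ* mutants of *Schizosaccharomyces pombe* were set against each other tile by tile on 3 two-colour tiling arrays, and 375 of 8704 tiles met a rule for moving in both mutants or in 1 of them. A tile is the mean of up to 20 probes of one strand, taken from a block of 40 consecutive probe numbers. Odd-numbered and even-numbered probes stand for opposite strands. The ratio of a tile is log2(mutant/wildtype), and a tile was counted as moved where it was past 1.6-fold, or 0.68 on the log2 scale, on an array. It moved alike where all 3 arrays were past this limit in 1 direction. It moved in *dhp1-1* only, or in *din1Δ* only, where the arrays of the other mutant stayed within it.

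Each array paired mutant RNA in Cy5 with wildtype RNA in Cy3. The *dhp1-1* strain, p1088, was measured in 2 biological replicates against wildtype p1087. The *din1Δ* strain, p1044, was measured on 1 array against another wildtype strain, p344, so its values have no replicate. The *dhp1-1* allele is temperature-sensitive and encodes a truncated Dhp1, while *din1Δ* removes a gene that is not essential. All strains grew to log phase in full medium at 30°C, which is permissive for *dhp1-1*, and RNA was depleted of ribosomal RNA before labelling. Strain p1088 also carries *ura4+* at an outer centromeric repeat and *ade6+* at *mat2*. *dhp1-1* replicate 1 shared a slide with *din1Δ*, and *dhp1-1* replicate 2 lay on another slide that was scanned with another scanner. Dyes were not swapped. The wildtype strain and the mutation cannot be told apart in the difference between the mutants. The probes of *dhp1* and *din1* themselves were not identified here, so any such probes were not left out of the tiles.

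Dhp1 is a nuclear 5′-3′ exoribonuclease, known as Rat1 in budding yeast and as Xrn2 in animals. It degrades RNA that bears a 5′ monophosphate, and it helps to release RNA polymerase II downstream of cleaved transcripts. Din1, known as Rai1 in budding yeast, binds Dhp1, stabilises it and removes pyrophosphate or incomplete caps from 5′ ends. Loss of 5′-3′ decay or of termination is known to raise RNA downstream of genes and RNA of unstable non-coding transcripts. The arrays carry no gene names here, so tiles are given by the number of their first probe. Their place is given relative to genes for silencing factors, whose runs of probes could be found.

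The *dhp1-1* arrays moved mostly upward and the *din1Δ* array mostly downward. Both *dhp1-1* arrays were past the limit upward at 206 tiles (2.37% of all tiles) and downward at 59 (0.678%). The *din1Δ* array was past it upward at 27 tiles (0.31%) and downward at 132 (1.52%). Of these, 17 tiles (0.195% of all tiles) were alike higher, which is 8.25% of the 206 tiles of *dhp1-1* and 63.0% of the 27 tiles of *din1Δ*. A further 9 tiles (0.103%) were alike lower, or 15.3% of the 59 tiles of *dhp1-1* and 6.82% of the 132 tiles of *din1Δ*. In opposite ways, 1 tile (0.0115%) moved, higher in *dhp1-1* and lower in *din1Δ*. In *dhp1-1* only, 188 tiles were higher (2.16%) and 50 lower (0.574%), and in *din1Δ* only, 7 were higher (0.0804%) and 103 lower (1.18%). The tiles higher in *din1Δ* only depended on the setting, with 70 for the ratio of the scanner software, 28 for the deposited table of log2 ratios, and 50 and 41 where probes had to be above background in both channels or in 1 of them. Those alike higher numbered 45 and 41 with the same requirements. Lower tiles outnumbered higher ones in *din1Δ* only in each of these. Another 313 tiles were past the limit on some arrays but met none of these rules, and 196 of them were higher on *dhp1-1* replicate 1 alone.

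The difference between the mutants was also fitted at every tile with limma, with the single *din1Δ* array assumed to vary like the *dhp1-1* arrays. At an adjusted p under 0.05, 1160 of the 8704 tiles (13.3%) differed, 763 higher (8.77%) and 397 lower (4.56%) in *dhp1-1*. Called were 172 of the 188 tiles higher in *dhp1-1* only, 45 of the 50 lower in *dhp1-1* only, 6 of the 7 higher in *din1Δ* only and 87 of the 103 lower in *din1Δ* only. The same ratios chose these tiles, so the counts describe them and test nothing. At the others of these tiles 1 mutant passed the limit and the other did not, but the difference between them was not called. Tiles named below as members of a class were likewise picked by their ratios or differences. The p-values given for them describe these tiles and test nothing. Of the called tiles, 663 were past 1.6-fold on no array, with a smallest called difference of 0.46 over all tiles. The count was 349 with the ratio of the scanner software and 0 with the deposited table, in which 1323 tiles had an unadjusted p under 0.05.

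**Figure D1:**
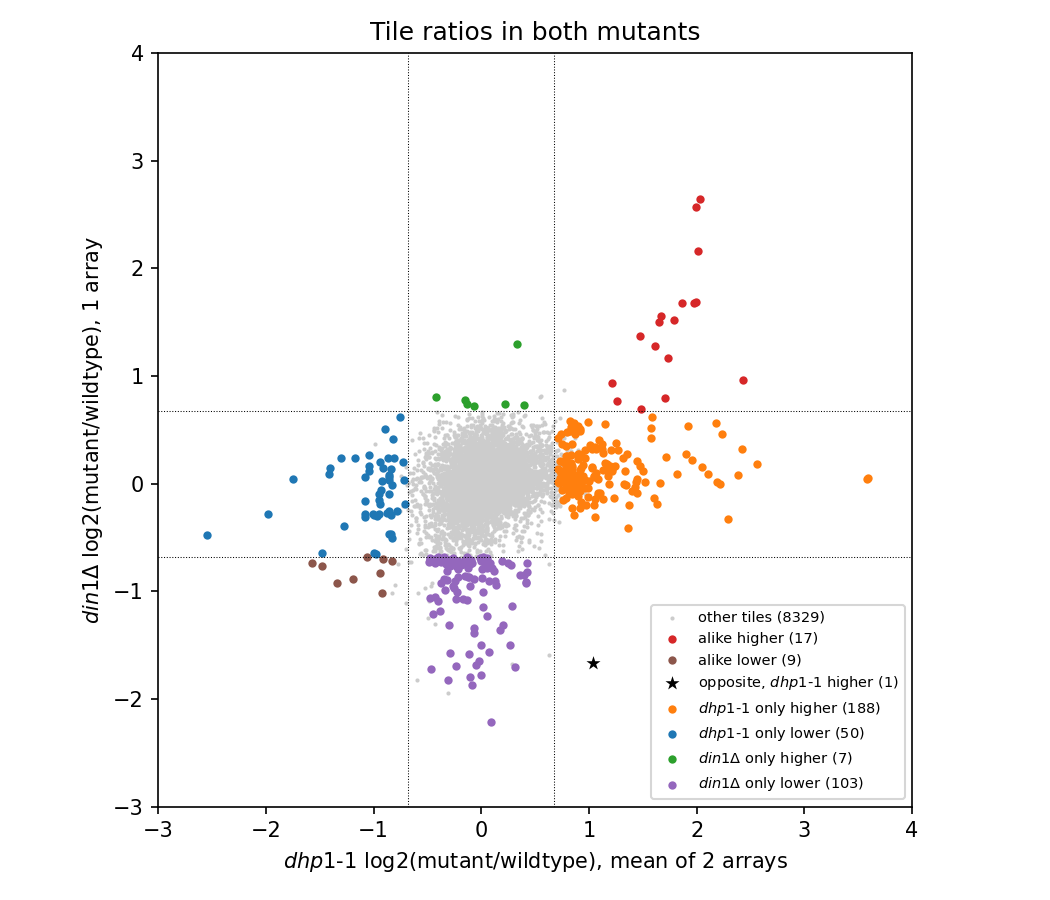
Each point is a tile, with the mean log2 ratio of the 2 *dhp1-1* arrays on the x axis and the log2 ratio of the 1 *din1Δ* array on the y axis; dotted lines mark 1.6-fold and colours mark the classes. The 17 tiles alike higher reach 2.64 in *din1Δ*, while the 188 tiles higher in *dhp1-1* only reach 3.59 with *din1Δ* near 0.

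The tiles that were higher in both mutants lay mostly in 1 place. Of the 17 tiles, 12 were even-numbered tiles from probe 114002 to probe 114600, after *las1* on chromosome II and before *ago1* on chromosome III. This stretch holds 15 even-numbered tiles, of which the other 3 were higher in *dhp1-1* only. In the gene order of assembly ASM294v3, 7 ribosomal RNA genes lie between *las1* and *ago1*. Fission yeast carries its ribosomal DNA as repeats near both ends of chromosome III. Which RNA these probes read was not established. The RNA had been depleted of ribosomal RNA, and whether the depletion was alike in mutant and wildtype samples was not tested. The wildtype signal (log2 of the Cy3 level, mean of 3 arrays) of these 15 tiles had a median of 15.8, at the 99.9th percentile of all tiles, and no spot was flagged as saturated. The signal also recurred within the stretch. Over 140 even-numbered probes from probe 114002, it correlated at 0.984 with the signal 272 numbers further on, and this correlation is across probes and only a description.

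The level of the 2 mutants differed along each of these repeats. Tile 114162 had log2 ratios of 2.25 and 1.74 in *dhp1-1* and 2.57 in *din1Δ*. Tile 114442, at the matching place of the next repeat, had 2.32 and 1.74 in *dhp1-1* and 2.64 in *din1Δ*. At both, the 2 *dhp1-1* arrays were below the *din1Δ* array, by 0.57 (adjusted p = 0.0399, limma) and 0.61 (adjusted p = 0.0361, limma). The dimmer tiles, which come before each of these 2 in probe order, had the other order. Tile 114042 had 3.13 and 1.73 in *dhp1-1* and 0.96 in *din1Δ*, a difference of 1.47 (standard error 0.31, adjusted p = 0.0032, limma). Tile 114322, in *dhp1-1* only, had 3.03 and 1.45 in *dhp1-1* and 0.46 in *din1Δ*. At the 4 dim tiles of the stretch the *dhp1-1* replicates lay farther apart than at its other tiles, and replicate 1, on the slide of *din1Δ*, was the higher one. The wildtype signal itself differed between slides there, and at tile 114042 it was 13.2 on the array of *dhp1-1* replicate 2, against 10.8 on that of replicate 1 and 10.9 on that of *din1Δ*. Its part in the result was not tested.

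The mutants were closer at the 4 brightest tiles, with a wildtype signal of 16.02 to 16.26 and differences of 0.10 to 0.33 that limma did not call. Tile 114522 had 1.83 and 1.51 in *dhp1-1* and 1.56 in *din1Δ*, a 3.18-fold level in *dhp1-1* and a 2.95-fold level in *din1Δ*. Tile 114002 had 1.51 and 1.45 in *dhp1-1* and 1.37 in *din1Δ*, and its difference of 0.10 had a 95% interval of -0.21 to 0.42. Tile 114242 had 1.72 and 1.496 in *dhp1-1* and 1.28 in *din1Δ*. Tile 114282 had 1.68 and 1.62 in *dhp1-1* and 1.498 in *din1Δ*. The next in signal were tiles 114442 and 114162, where *dhp1-1* was the lower mutant as given above. At tiles 114202 and 114562, which were less bright, the *dhp1-1* mean was 3.65-fold and 3.46-fold, and *din1Δ* was 3.20-fold and 2.86-fold, and neither difference was called. Tile 114482 had 1.73 on both *dhp1-1* arrays and 1.17 in *din1Δ*, and its difference of 0.56 was called (adjusted p = 0.0163, limma).

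The other strand of this stretch was nearly as bright but had lower ratios. The 15 odd-numbered tiles from probe 114001 to probe 114599 had a median wildtype signal of 14.5. Their median log2 ratio was 0.38 and 0.56 in the *dhp1-1* replicates and 0.23 in *din1Δ*, against 2.25 and 1.62 in *dhp1-1* and 1.498 in *din1Δ* on the even-numbered strand. None of the 15 was alike higher, and 4 were higher in *dhp1-1* only. These 4 were the dim tiles opposite those of the even-numbered strand, such as tile 114361, at 1.85 and 1.31 in *dhp1-1* and 0.43 in *din1Δ*.

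**Figure D2:**
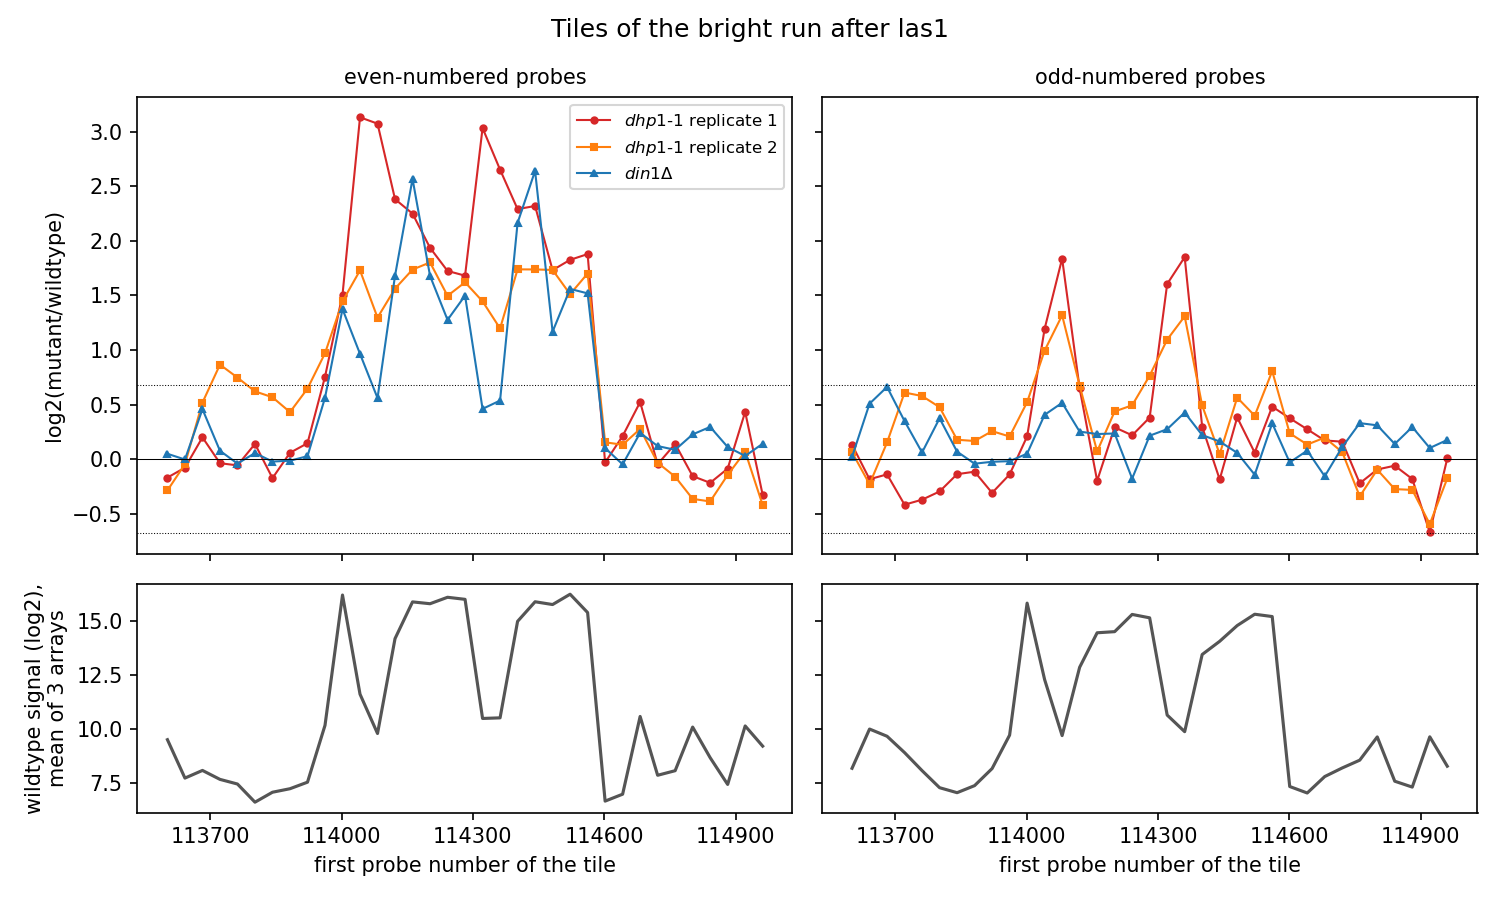
The upper panels plot the log2 ratio of each tile on the 3 arrays against the number of its first probe, for the even-numbered strand at the left and the odd-numbered strand at the right; the lower panels plot the wildtype signal (log2, mean of 3 arrays). On the even-numbered strand the *din1Δ* ratio peaks at 2.57 and 2.64 in 2 bright segments, and *dhp1-1* replicate 1 peaks at 3.13 and 3.03 in the dimmer tiles before them.

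The other 5 tiles alike higher lay apart from each other. Tile 151522, between *grc3* on chromosome III and *cid14* on chromosome I, had 2.25 and 1.73 in *dhp1-1* and 1.68 in *din1Δ*, with a wildtype signal of 14.5. The gene table lists 6 ribosomal RNA genes between these neighbours. Tile 174001, at the end of the numbering, had 1.34 and 1.08 in *dhp1-1* and 0.94 in *din1Δ*. At both, *din1Δ* was below the 2 *dhp1-1* arrays, and limma did not call the difference. The remaining 3 tiles had wildtype signals of 8.54 to 9.51, near the median of all tiles. Tile 137722 had 1.82 and 1.59 in *dhp1-1* and 0.79 in *din1Δ* (difference 0.92, adjusted p = 0.000559, limma). Tile 20201 had 1.79 and 1.18 in *dhp1-1* and 0.69 in *din1Δ*, which is just inside the limit. Tile 60761 had 1.44 and 1.09 in *dhp1-1* and 0.77 in *din1Δ*. At these 3 tiles both *dhp1-1* arrays were above *din1Δ*, so that alike says that both mutants passed the limit and not that they were equal. The nearest tile outside the limit was 112122, with 1.98 and 1.20 in *dhp1-1* and 0.62 in *din1Δ*.

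The 9 tiles that were lower in both mutants were scattered and mostly bright in wildtype. Their median wildtype signal was 11.8, at the 97.3rd percentile, against a median of 8.73 over all tiles. In 6 of the 9 the other strand was more than 2 log2 units dimmer. The wildtype signal is the denominator of the ratio, so a high signal and a low ratio are not fully independent. None of the 9 other-strand tiles was past the limit downward in *din1Δ*, and 1 was in *dhp1-1*.

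Tile 101562, between *stc1* and *chp2*, had -1.68 and -1.28 in *dhp1-1* and -0.76 in *din1Δ*, so that 0.358 of the wildtype level was left in *dhp1-1* and 0.590 in *din1Δ*. Tile 2602, before *clr3*, had -1.63 and -1.52 in *dhp1-1* and -0.74 in *din1Δ*. These 2 tiles were the ones called between the mutants, both lower in *dhp1-1* (-0.72, adjusted p = 0.00752, and -0.84, adjusted p = 0.000882, limma). Tiles 55282 and 55322 are neighbours between *atf1* and *clr1*. The first had -1.38 and -0.997 in *dhp1-1* and -0.88 in *din1Δ*. The second had -1.03 and -0.80 in *dhp1-1* and -0.70 in *din1Δ*. Both had a wildtype signal of 12.0, and the tiles on the other strand met no rule.

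Tile 65161, the brightest of the 9 with a wildtype signal of 14.2, had -1.09 and -1.03 in *dhp1-1* and -0.68 in *din1Δ*. Tile 111682, between *las1* and *ago1*, had -1.41 and -1.27 in *dhp1-1* and -0.93 in *din1Δ*. It is the exception in strand, since the other strand there, tile 111681, was brighter and was lower in *dhp1-1* only. Tile 137682 had -1.05 and -0.79 in *dhp1-1* and -1.02 in *din1Δ*, so that *din1Δ* lay within the range of the *dhp1-1* replicates. Tile 34721 had -0.96 and -0.70 in *dhp1-1* and -0.72 in *din1Δ*. Tile 113041 had -0.76 and -1.12 in *dhp1-1* and -0.83 in *din1Δ*. In these 3 tiles the replicates of *dhp1-1* enclosed the *din1Δ* value, and in the other 6 both *dhp1-1* arrays were lower than *din1Δ*.

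The tile that moved in opposite ways was tile 119321, between *las1* and *ago1*. It had 0.997 and 1.09 in *dhp1-1* and -1.66 in *din1Δ*, a difference of 2.71 (standard error 0.15, adjusted p = 2.72e-10, limma). Read probe by probe, it holds a boundary. Its first 8 probes, to probe 119335, averaged -0.01 ± 0.21 and 0.33 ± 0.15 in the *dhp1-1* replicates and -2.39 ± 0.44 in *din1Δ* (SD over probes), with a wildtype signal of 12.5. Its other 12 probes averaged 1.67 ± 1.06 and 1.59 ± 0.70 in *dhp1-1* and -1.18 ± 1.25 in *din1Δ*, with a wildtype signal of 9.11. Only 2 of the 20 probes were past the limit upward on both *dhp1-1* arrays and downward in *din1Δ*. The tile was thus made mostly of probes lower in *din1Δ* alone next to probes higher in *dhp1-1* alone. It left the class with the median over probes and with both requirements on probes above background, under which the 1 opposite tile was another one. With blocks shifted by 20 numbers no tile was in the class.

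The run of probes lower in *din1Δ* began in the tile before it. Tile 119281 had 0.03 and 0.15 in *dhp1-1* and -2.21 in *din1Δ*, so that 0.216 of the wildtype level was left in *din1Δ* alone. It had the lowest *din1Δ* ratio of all 8704 tiles. A run of 30 odd-numbered probes, from 119277 to 119335, was below the limit in *din1Δ* and within it on both *dhp1-1* arrays, with a median of -2.29 in *din1Δ*. After the boundary, tile 119401 was higher in *dhp1-1* only, with 1.11 and 0.77 in *dhp1-1* and 0.25 in *din1Δ*. In a window laid around these tiles, 10 of 42 even-numbered and 3 of 43 odd-numbered tiles were lower in *din1Δ* only, against 1.18% of all tiles. The window was chosen with the ratios known, so these counts are only a description. *dhp1-1* had its own rise on the odd-numbered strand there, at tile 120121, with 2.13 and 1.78 in *dhp1-1* and 0.22 in *din1Δ*.

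**Figure D3:**
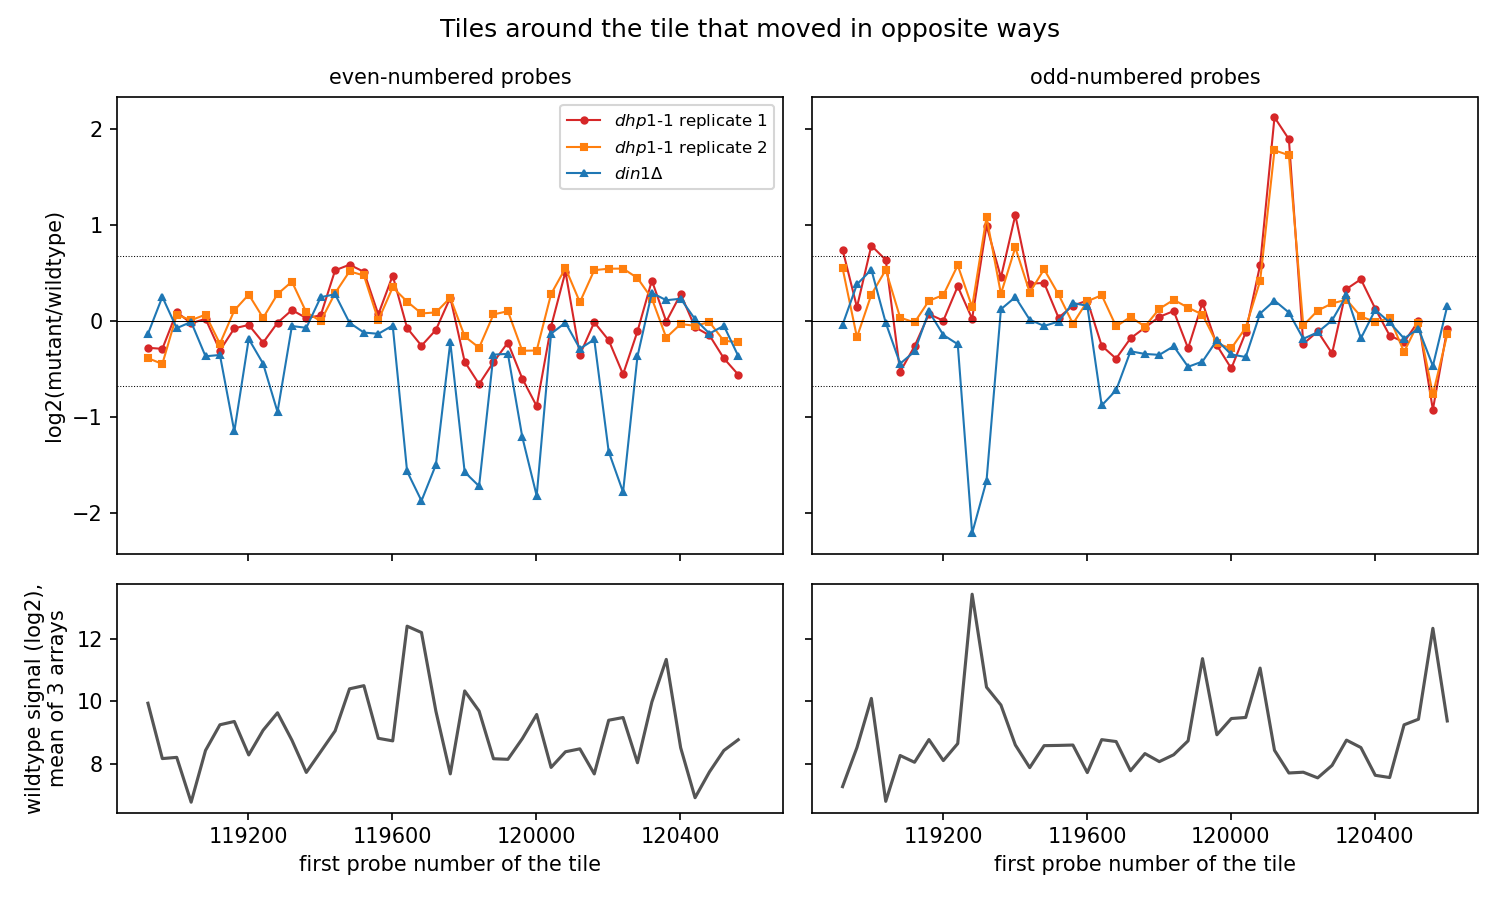
The log2 ratio of each tile on the 3 arrays (upper panels) and the wildtype signal (log2, mean of 3 arrays, lower panels) are plotted against the number of the first probe, for the even-numbered strand at the left and the odd-numbered strand at the right. The *din1Δ* ratio is -2.21 at the odd-numbered tile 119281 and -1.87 at the even-numbered tile 119682, where both *dhp1-1* arrays stay near 0.

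In *dhp1-1* only, 188 tiles were higher, 93 on odd-numbered and 95 on even-numbered probes. Their *dhp1-1* mean had a median of 0.92 and a highest value of 3.59, and 75 were over 2-fold and 12 over 4-fold. In *din1Δ* their ratio had a median of 0.11, and it was above 0 in 136 of the 188. Their wildtype signal was ordinary, with a median of 8.47 against 8.73 over all tiles, and a median of 14.3 of their 20 probes were above background in wildtype, against 14.7 over all tiles (mean of the 3 arrays). *dhp1-1* replicate 1 was above replicate 2 in 149 of the 188, against 5063 of the 8704 tiles in all.

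The 2 highest tiles stood far above the rest. Tile 92202, between *sir2* and *stc1*, had 3.79 and 3.36 in *dhp1-1* and 0.04 in *din1Δ*, an 11.9-fold level in *dhp1-1* and a 1.03-fold level in *din1Δ*. Tile 99001, between *stc1* and *chp2*, had 3.77 and 3.42 in *dhp1-1* and 0.05 in *din1Δ*, or 12.1-fold and 1.04-fold. Both differences were 3.54 (standard errors 0.17, adjusted p = 2.72e-11 and 2.49e-11, limma). The tiles were named for the size of this difference, so these p-values are not a test of it. At each of the 2 tiles, the tile on the other strand was also among the highest. Tile 92201 had 1.99 and 2.40 in *dhp1-1* and 0.02 in *din1Δ*. Tile 99002 had 2.08 and 2.36 in *dhp1-1* and a value of 0 to 2 decimals in *din1Δ*. The rise over tile 99001 had sharp edges, with 13 consecutive odd-numbered probes from 99009 to 99033 past the limit in *dhp1-1* only and medians of 5.38, 4.87 and -0.14 on the 3 arrays, *din1Δ* last. The same-strand tiles before and after it were at -0.42 and -0.45, and at 0.54 and 0.35, on the *dhp1-1* arrays.

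The other strongest tiles of this class lay in several intervals. Tile 11642, between *clr3* and *clr4*, had 2.33 and 2.25 in *dhp1-1* and -0.33 in *din1Δ*. Tile 20602, between *clr4* and *air1*, had 2.48 and 2.38 in *dhp1-1* and 0.32 in *din1Δ*, with 17 consecutive probes at medians of 3.99 and 3.70 in *dhp1-1*. Both were brighter than the tile on the other strand, which was higher in *dhp1-1* as well. Tile 99962 had 2.08 and 2.02 in *dhp1-1* and 0.15 in *din1Δ*. Tile 37042 had 2.37 and 1.84 in *dhp1-1* and 0.09 in *din1Δ*, with 22 consecutive probes past the limit. Tile 112082 had 3.03 and 2.10 in *dhp1-1* and 0.18 in *din1Δ*, and tile 53161 had 2.67 and 2.10 in *dhp1-1* and 0.08 in *din1Δ*. At these last 2 tiles 4 to 9 of the 20 probes were above background in wildtype on each array, so the wildtype level, and with it the size of the ratio, is uncertain there. The groups did not overlap at any of the 10 tiles, as the rule requires.

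**Figure D4:**
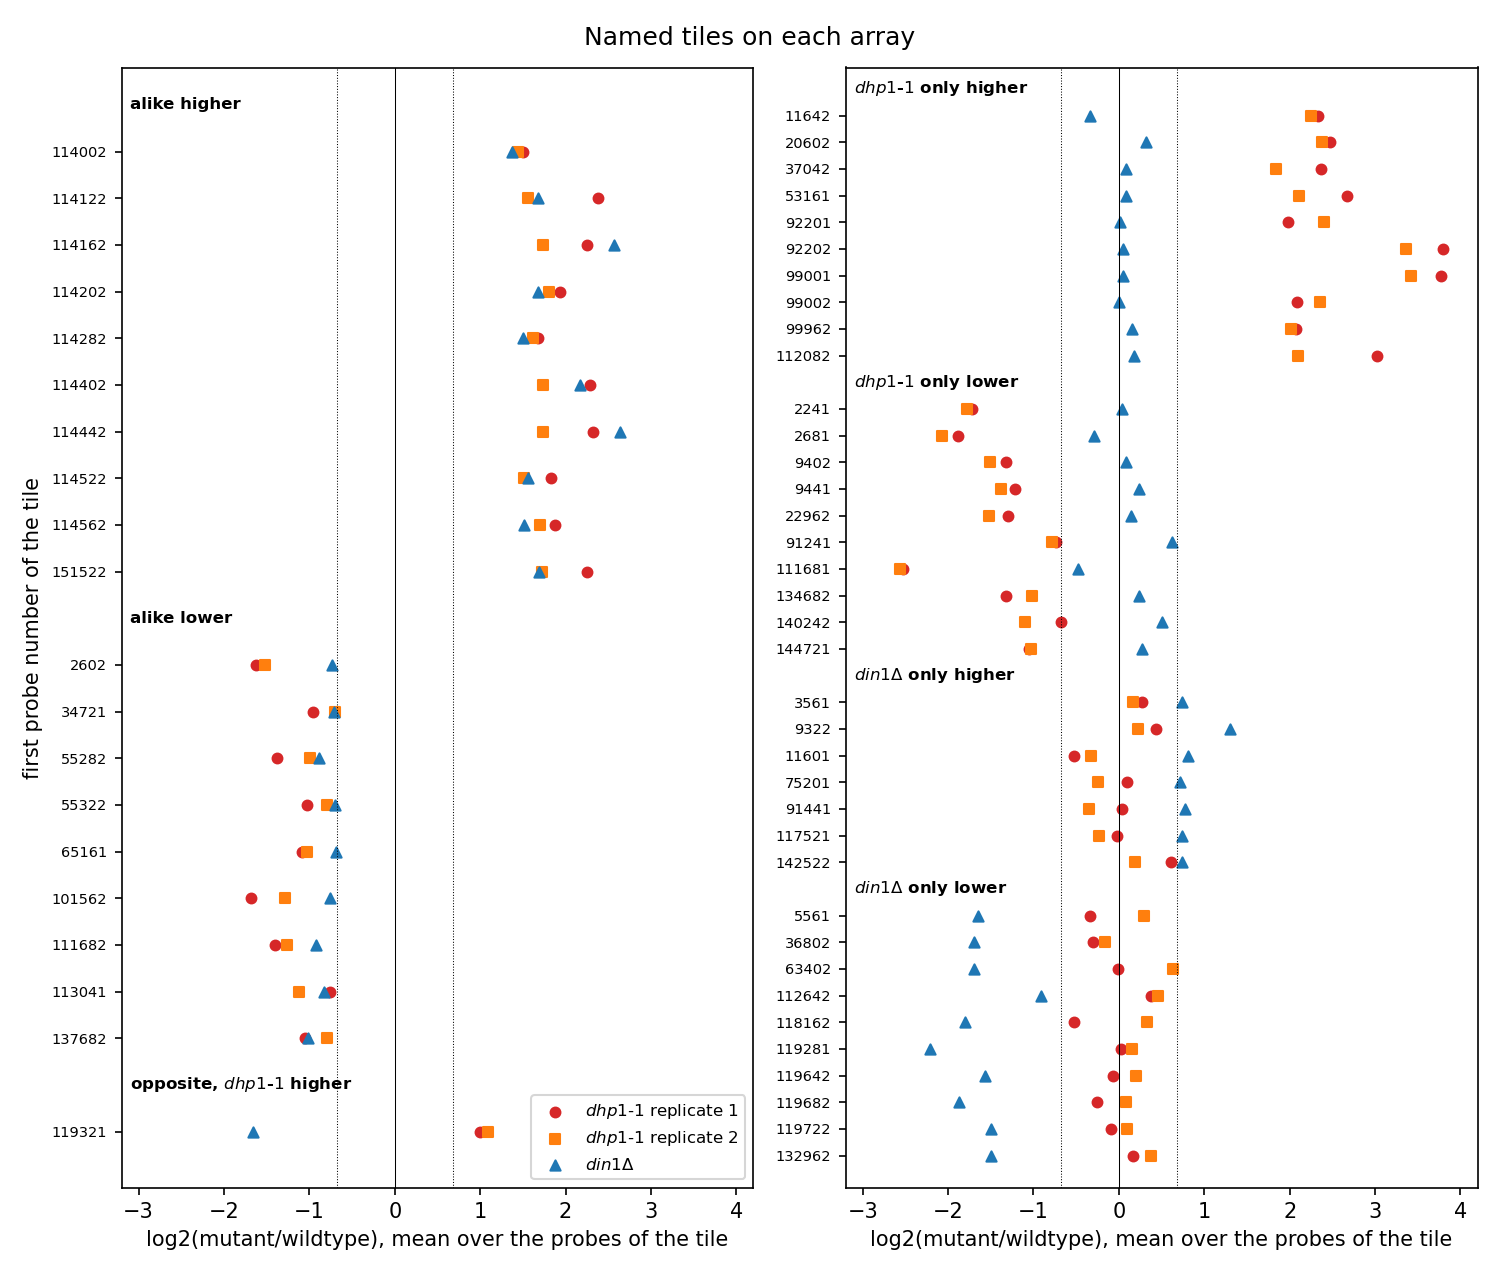
Log2 ratios of the named tiles of each class, with 1 row per tile, labelled by its first probe number, and 1 point per array; dotted lines mark 1.6-fold. The classes fix which points lie past the lines. The *dhp1-1* replicates lie at 3.77 and 3.42 at tile 99001 and at 3.03 and 2.10 at tile 112082, with *din1Δ* at 0.05 and 0.18, while at tile 114002, alike higher, the 3 points lie between 1.37 and 1.51.

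Tiles higher in *dhp1-1* only were found on both strands of 22 blocks, and in 45 of the 188 the tile on the other strand was past the limit upward on both *dhp1-1* arrays, against 206 of 8704 tiles in all. Of these blocks, 11 lay in 2 stretches in which the strands had like wildtype signals. The stretches were chosen with the ratios known, as the longest run of blocks with strands within 2 log2 units of each other in 2 intervals rich in transfer RNA genes. Fission yeast centromeres carry transfer RNA genes, and their outer repeats are transcribed on both strands and silenced through RNA interference. Whether the stretches are centromeres was not established.

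The stretch between *atf1* and *clr1*, an interval with 38 transfer RNA genes in the gene table, runs from probe 40401 to 41800. Of its 70 tiles, 14 were higher in *dhp1-1* only. These 14 tiles ranged from 0.71 to 0.99 in replicate 1 and from 0.70 to 1.01 in replicate 2, against 0.02 to 0.58 in *din1Δ*. The stretch between *ipi1* and *epe1*, an interval with 29 transfer RNA genes, runs from probe 140601 to 142560, and 26 of its 98 tiles were higher in *dhp1-1* only. Those ranged from 0.68 to 1.02 in replicate 1 and from 0.69 to 1.04 in replicate 2, against -0.07 to 0.22 in *din1Δ*. The rule set the lower end of these *dhp1-1* ranges. Over all 70 tiles of the first stretch the means were 0.38 and 0.39 in *dhp1-1* and 0.14 in *din1Δ*, and over all 98 tiles of the second they were 0.50 and 0.53 in *dhp1-1* and 0.13 in *din1Δ*. limma called 19 of the 70 and 51 of the 98 tiles higher in *dhp1-1*, against 8.77% of all tiles. Of the tiles higher in *dhp1-1* only, which the same ratios chose, it called 8 of the 14 and all 26. Together the 2 stretches hold 21.3% of the tiles higher in *dhp1-1* only and 1.93% of all tiles.

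Runs of 3 or more neighbouring tiles of the class numbered 7. The longest, 5 even-numbered tiles from 140842 to 141040, lay in the second stretch, with tile values of 0.68 to 0.82 in replicate 1, 0.70 to 0.82 in replicate 2 and 0.07 to 0.16 in *din1Δ*. The 3 tiles from 112042 to 112160, between *las1* and *ago1*, had means of 2.26 and 1.49 in *dhp1-1* and 0.32 in *din1Δ*. The 4 tiles from 32281 to 32439, between *mit1* and *act1*, had means of 1.22 and 1.02 in *dhp1-1* and 0.11 in *din1Δ*. A run of 4 tiles from 138642 to 138800 had means of 1.11 and 0.94 in *dhp1-1* and 0.10 in *din1Δ*. The rule set this separation from *din1Δ*, and the replicates lay farthest apart in the run from 112042. The other 3 runs, each of 3 tiles, lay from 121 to 239 before *clr3* and, in the 2 stretches, from 41562 to 41680 and from 141881 to 141999. The rest of the class were 115 single tiles and 24 pairs.

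Many tiles of the class lay beside a brighter tile of their own strand. Outside the 2 stretches and before *epe1* lay 141 of them. A neighbour more than 2 log2 units brighter in wildtype lay on the lower-numbered side of 25 of the 72 odd-numbered tiles and on the higher-numbered side of 15. For the 69 even-numbered tiles the order was turned, with 11 on the lower-numbered side and 17 on the higher-numbered side. Pooled over strands in this way, 29.8% had such a neighbour on the one side and 18.4% on the other, against 9.25% and 9.74% of all 7208 tiles of the same part. The 141 tiles were dimmer, with a median wildtype signal of 8.39 against 8.68 for the 7208. Wildtype is the denominator of the ratio, so these shares are not independent of the rule. Which side is upstream is not known from the files, since the gene table used here holds no strand. Of the 103 tiles lower in *din1Δ* only, the 99 before *epe1* had 1 such neighbour, and the 50 lower in *dhp1-1* only also had 1. Both sets of lower tiles were brighter themselves, with a median wildtype signal of 10.1 against 8.39 for the 141 tiles. A bright tile has less room for a neighbour that much brighter, so these counts do not compare the mutants.

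In *dhp1-1* only, 50 tiles were lower, 17 of them by more than 2-fold. Their wildtype signal had a median of 10.1, at the 81.6th percentile. It is the denominator of the ratio, so it is not independent of the rule. Tile 111681, between *las1* and *ago1*, was the lowest, with -2.53 and -2.56 in *dhp1-1* and -0.48 in *din1Δ*, so that 0.171 of the wildtype level was left in *dhp1-1*. Its difference of -2.06 had a standard error of 0.15 (adjusted p = 1.44e-08, limma). Before *clr3*, 8 tiles below probe 2800 were of this class, which holds 0.574% of all tiles. That limit was chosen with the ratios known. Tile 2681 had -1.89 and -2.07 in *dhp1-1* and -0.29 in *din1Δ*, and tile 2241 had -1.72 and -1.77 in *dhp1-1* and 0.04 in *din1Δ*. Tile 2602, one of the tiles alike lower, lies among them. The run of 3 tiles from 2641 to 2759 had means of -1.20 and -1.35 in *dhp1-1* and -0.11 in *din1Δ*. At tile 2241 the other strand, tile 2242, was lower as well, with -0.68 and -0.76 in *dhp1-1* and 0.03 in *din1Δ*.

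A second group lay between *clr3* and *clr4*. Tile 9441 had -1.22 and -1.38 in *dhp1-1* and 0.24 in *din1Δ*, and tile 9402, on the other strand, had -1.32 and -1.51 in *dhp1-1* and 0.09 in *din1Δ*. The run from 9401 to 9519, of 3 tiles, had means of -0.87 and -1.03 in *dhp1-1* and 0.28 in *din1Δ*. Tile 9322, shortly before it on the even-numbered strand, was 1 of the 7 tiles higher in *din1Δ* only, so the mutants parted over neighbouring tiles here. Tile 22962 had -1.30 and -1.52 in *dhp1-1* and 0.15 in *din1Δ*. Tile 134682, between *ipi1* and *epe1*, had -1.33 and -1.02 in *dhp1-1* and 0.24 in *din1Δ*. Tile 144721, in the same interval, had -1.06 and -1.02 in *dhp1-1* and 0.27 in *din1Δ*. At tile 91241 the limit was nearly passed both ways, with -0.73 and -0.78 in *dhp1-1* and 0.62 in *din1Δ*. Tile 140242 was like it, with -0.68 and -1.10 in *dhp1-1* and 0.50 in *din1Δ*.

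In *din1Δ* only, 103 tiles were lower, with a median *din1Δ* ratio of -0.86 and a median wildtype signal of 10.1. In 93 of them the tile was brighter than the tile on the other strand. At least 10 probes were above background in wildtype on each array in all 103, against 71.5% of all tiles. A tile near background can hardly fall 1.6-fold, and wildtype is the denominator of the ratio, so this brightness follows in part from the rule. In *din1Δ*, 33 of the tiles were more than 2-fold below wildtype, and 13 of these lay between *las1* and *ago1*, which hold 650 of the 8704 tiles. The *dhp1-1* arrays differed by slide at these tiles. Replicate 1, on the slide of *din1Δ*, had a median of -0.31 and was below 0 in 91 of the 103, and replicate 2 had a median of 0.05 and was below 0 in 49. Replicate 1 was below replicate 2 in 99 of the 103. Whether the slide is the reason was not tested. The median difference was 0.58 for replicate 1 minus *din1Δ* and 0.91 for replicate 2 minus *din1Δ*.

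Between *las1* and *ago1*, tiles 119642, 119682 and 119722 formed a run. They had -0.07, -0.26 and -0.09 in *dhp1-1* replicate 1 and 0.20, 0.08 and 0.09 in replicate 2, against -1.57, -1.87 and -1.50 in *din1Δ*. Another run of 3 tiles, from 118122 to 118240, had means of -0.28 and 0.39 in *dhp1-1* and -1.24 in *din1Δ*. In the first run the *dhp1-1* replicates were close to wildtype, and in the second their means lay on either side of it. Over the tiles of the second run, replicate 1 ranged from -0.54 to 0.22 and replicate 2 from 0.27 to 0.58. Tile 118162, in the second run, had -0.53 and 0.32 in *dhp1-1* and -1.80 in *din1Δ*. Tile 120002 fell out of the class because of replicate 1 alone, with -0.89 and -0.31 in *dhp1-1* and -1.82 in *din1Δ*. Over all tiles, 15 were past the limit downward in replicate 1 and *din1Δ* but not in replicate 2, and 1 in replicate 2 and *din1Δ* but not in replicate 1.

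Elsewhere, tile 36802, between *mit1* and *act1*, had -0.30 and -0.16 in *dhp1-1* and -1.70 in *din1Δ*, with 24 consecutive probes below the limit in *din1Δ* only. Tile 63402, between *atf1* and *clr1*, had -0.01 and 0.64 in *dhp1-1* and -1.70 in *din1Δ*. Tile 5561, before *clr3*, had -0.34 and 0.30 in *dhp1-1* and -1.64 in *din1Δ*. At the last 2 the *dhp1-1* replicates differed by over 0.6 and lay on either side of wildtype. Tile 132962, between *raf2* and *ipi1*, had 0.17 and 0.37 in *dhp1-1* and -1.50 in *din1Δ*. Tile 112642 had 0.37 and 0.45 in *dhp1-1* and -0.91 in *din1Δ*, and both *dhp1-1* arrays were above wildtype there.

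The 7 tiles higher in *din1Δ* only were close to the limit except 1. Tile 9322 had 0.43 and 0.23 in *dhp1-1* and 1.30 in *din1Δ*, a 2.46-fold level in *din1Δ*. The other 6 had 0.72 to 0.81 in *din1Δ*. At tile 11601, between *clr3* and *clr4*, the *dhp1-1* arrays were on the other side of wildtype, at -0.52 and -0.32. The even-numbered tile of the same block was past the limit upward on both *dhp1-1* arrays, at 2.03 and 1.402, and at 0.25 in *din1Δ*. Tile 142522, in the second of the stretches with like strands, had 0.61 and 0.19 in *dhp1-1* and 0.73 in *din1Δ*, and was the only 1 of the 7 that limma did not call.

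The genes for silencing factors were read on their own probes, since none of the 40 tiles that hold 30 of them belonged to a class. *air1*, *clr2*, *dcr1*, *rdp1* and *rik1* neither fill enough of a tile nor lie within 1, so no call is given for them. Of the 35 genes, 22 were lower on both *dhp1-1* arrays than in *din1Δ*, 9 were higher on both and 4 were split. Over all tiles, 35.3% were lower on both *dhp1-1* arrays than in *din1Δ* and 45.2% higher on both, and over the 6222 tiles with at least 10 probes above background in wildtype on each array these shares were 38.8% and 43.2%. The genes had a median difference of -0.22 against 0.03 over all tiles. More genes were lower than higher also with the scanner ratio, median centring, no background correction and the deposited table. The genes were placed through values listed for these arrays, and 10 of the 35 runs are not unique. Among the 25 genes with a single matching run, 16 were lower and 6 higher on both *dhp1-1* arrays.

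The genes of the Rix1 complex, which works in ribosome assembly and in heterochromatin, numbered 5. All 5 were lower than in *din1Δ* on both *dhp1-1* arrays, against 22 of all 35 genes. Among them *rix1* had 0.11 and -0.17 in *dhp1-1* and 0.54 in *din1Δ*, and limma called both of its tiles (-0.50, adjusted p = 0.0438, and -0.47, adjusted p = 0.0492, limma). The other genes of the complex were less clear. With the deposited log2 ratios 4 of 5 were lower and 1 was split, and *crb3* and *grc3* were read on 3 and 5 probes. The tile of *las1* had a difference of -0.48. Those of *ipi1*, *grc3* and *crb3*, which also hold other probes, had 0.17, 0.06 and 0.01. None of these tiles was called. Of the Clr4 methyltransferase complex, 4 of 5 genes read here were lower, against 22 of all 35 genes. None of the tiles given for this complex was called, and the run of *raf2* is not unique. *rik1*, with a difference of -0.57, has no tile. At *rix1* the *din1Δ* level was above wildtype and the *dhp1-1* levels lay on either side of it. The HP1 gene *chp2*, whose protein binds methylated histone H3, had 0.05 and -0.19 in *dhp1-1* and 0.51 in *din1Δ*, and its tile was called (-0.52, adjusted p = 0.0324, limma). The other HP1 gene, *swi6*, had -0.25 and -0.16 in *dhp1-1* and 0.03 in *din1Δ* on 3 probes, and its run is not unique.

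For the SHREC deacetylase complex 4 of 5 genes, and for RNA interference 5 of 6, were lower on both *dhp1-1* arrays, against 22 of all 35. None of the tiles given for these groups was called, and *clr2*, *dcr1* and *rdp1* have no tile. The runs of *clr1*, *clr3*, *ago1*, *chp1* and *cid14* in these groups are not unique. In all, limma called 4 of the 40 tiles, all lower in *dhp1-1*, against 13.3% of all tiles called and 4.56% called lower. The count of 4 is too small to say whether these tiles differ from that share of lower calls. The fourth called tile holds part of *cdc20*, the catalytic subunit of DNA polymerase epsilon. The genes for RNA processing factors went the other way, with 4 of 5 higher on both *dhp1-1* arrays, against 9 of all 35. With median centring it was 2 of 5. Of these genes, *seb1*, whose protein binds nascent RNA and acts in termination, had 0.45 and 0.58 in *dhp1-1* and -0.47 in *din1Δ* on 4 probes. The runs of *rrp6* and *mmi1* are not unique, and *red1* was above *din1Δ* by only 0.03 on replicate 2. The gene for the transcription factor subunit Pcr1 had -0.15 and 0.42 in *dhp1-1* and -0.96 in *din1Δ*, on 1 probe. *seb1* and *pcr1* were the genes past 1.6-fold between the mutants on both *dhp1-1* arrays. Neither fills a tile, and their tiles were not called.

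The array holds 2 densities of probes, which sets how sharply a class can be placed. Genes up to *ipi1* have 9 to 84 probes, and genes from *epe1* on have 1 to 9. A block holds 0.649 coding genes in the first part and 4.13 in the second, so a tile there averages over several genes. Of the 1328 tiles from *epe1* on, 13 (0.979%) were in a class, against 304 of 6706 (4.53%) up to *ipi1* and 58 of 670 (8.66%) between *ipi1* and *epe1*. The second stretch with like strands, in that interval, holds 27 of the 58, and the genes of chromosome I that were placed lie in the sparse part.

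The difference between the mutants was also read apart by slide, and its downward part differed. *dhp1-1* replicate 1 minus *din1Δ*, on the same slide, was past 1.6-fold upward at 365 tiles and downward at 100. *dhp1-1* replicate 2 minus *din1Δ*, across slides, was past it upward at 376 and downward at 231. Both subtract the same *din1Δ* array. Across tiles the ratios of the *dhp1-1* replicates correlated at 0.836, those of replicate 1 and *din1Δ*, on the same slide, at 0.403, and those of replicate 2 and *din1Δ* at 0.116. Tiles are not independent replicates, and the tiles share probes' sequence and dye effects between arrays. The order of the 3 correlations was the same over the 6222 tiles with at least 10 probes above background in wildtype on each array (0.838, 0.431 and 0.116).

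**Figure D5:**
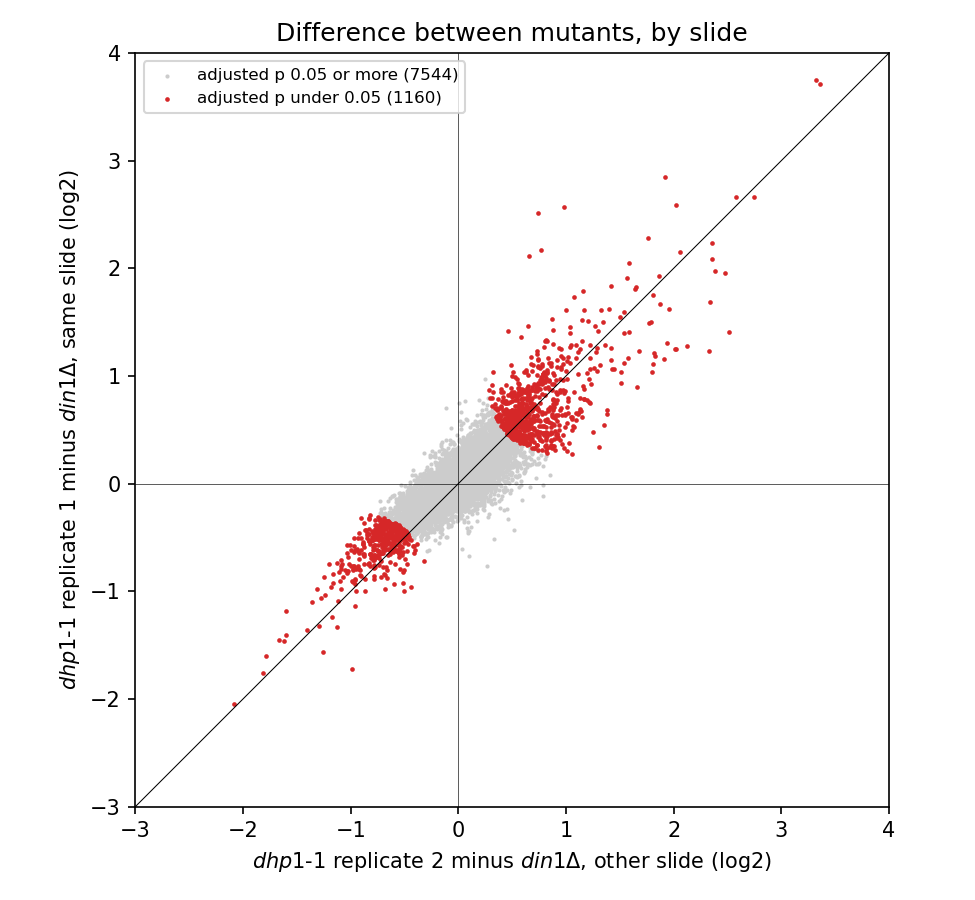
Each point is a tile, with *dhp1-1* replicate 2 minus *din1Δ* on the x axis and *dhp1-1* replicate 1 minus *din1Δ* on the y axis (log2 units); red points have an adjusted p under 0.05 (limma) and the line marks equal differences. Both axes subtract the same *din1Δ* array, so the points follow the line in part for that reason. The 1160 called tiles are in red, and the tiles farthest to the upper right reach 3.36 across slides and 3.75 on the same slide.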

How the data were processed

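Each array compared mutant RNA (Cy5) with wildtype RNA (Cy3), 2 arrays for *dhp1-1* and 1 for *din1Δ*. The authors extracted spots with Feature Extraction 10.7.3.1 and deposited spot and background intensities, the log10 ratio with its p-value and flags. A second deposited file gives log2 ratios and is 0 where that p-value was 0.05 or more (64.4% to 72.5% of probes). Median intensities were corrected with normexp (offset 50) and normalized by loess in limma 3.58.1 (R 4.3.3), without control and outlying spots. Of 180880 spots 174063 are numbered probes, and 250, 1263 and 592 of these were outliers on the *dhp1-1* replicates and *din1Δ*. Wildtype was above background at 67.2% to 71.7% of probes, and the number of arrays limits the precision. Tiles with at least 10 usable probes on each array entered limma's moderated test, adjusted after Benjamini and Hochberg for 8704 tiles, with intervals of 95%; the prior supplies 19.1 of 20.1 degrees of freedom. On simulated data of this comparison, with 8704 tiles, 99 of 100 tiles shifted by 1 log2 unit and 100 of 100 shifted by 2 were called, with 18 unchanged tiles, or 8.29% of the calls. These counts hold for the simulated data only. How many true shifts are found on the measured arrays, which differ in slide and wildtype strain, was not tested.

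At most 10 tiles a class were named, those with the largest value of their smallest ratio over the arrays (alike, opposite) or of their smallest difference between a *dhp1-1* array and *din1Δ*, as were runs of 3 or more. Other tiles (20201, 60761, 112122, 114042, 114242, 114322, 114361, 114482, 119401, 120002, 120121, 137722, 174001 and 2242) were added after their values were seen. Genes were placed by matching runs of probes to values the study lists for 35 genes (1 item is not reported here), and ASM294v3 served for names and order only. The classes, gene list and stretches were chosen with earlier results of these data known. Alternatives were other normalizations, the deposited table, filters on dim probes, medians, shifted blocks, other folds, the slide as a block and each *dhp1-1* replicate left out.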

Additional observations from a re-analysis of the deposited data

How the results depend on the processing

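Most members kept their class with another normalization, while counts moved. Of the 26 tiles alike, 25, 25, 26 and 26 kept their class with the scanner ratio, median centring, no background correction and the deposited table, and of the 238 in *dhp1-1* only, 228, 205, 232 and 231 did. Called tiles numbered 349 with the scanner ratio, 570 with median centring and 0 with the deposited table, and the cause was not tested. Higher calls were 78.5% of calls with the scanner ratio and 65.8% with loess. Tiles alike were 40 with the scanner ratio, and 56 and 51 where probes had to be above background (both channels, or 1 channel). Opposite tiles numbered 9 for the scanner ratio, 4 for the deposited table, 0 for the median over probes and 0 for shifted blocks, and tile 119321 left the class under both filters. In *dhp1-1* only, the scanner ratio gave 543 tiles and the deposited log2 ratios gave 400. In *din1Δ* only, the scanner ratio gave 256, the deposited log2 ratios gave 173, and the 2 filters 198 and 182; of these 70, 28, 50 and 41 were higher, against 7 of 110. At 2-fold the counts alike, opposite, in *dhp1-1* only and in *din1Δ* only were 12, 0, 77 and 43, and at 1.4-fold 57, 5, 498 and 310. With 1 *dhp1-1* replicate left out they ranged from 27 to 44, 1 to 4, 304 to 463, and 114 to 128; the highest counts alike and in *dhp1-1* only came without replicate 2. Small differences between the mutants changed sign at tile 113041 with the scanner ratio (0.11) and, under median centring, at tiles 114002 (-0.072), 114282 (-0.025) and 114522 (-0.062). Left-out replicates gave differences of -0.25 to 0.020 at tile 34721, -0.12 to 0.70 at tile 114122, -0.048 to 0.27 at tile 114522, -0.29 to 0.066 at tile 113041, -0.43 to 0.13 at tile 114402, and -0.030 to 0.23 at tile 137682. With the slide as a block, replicate 1 minus *din1Δ* has no residual degrees of freedom and no test. No paired analysis was possible because *dhp1-1* and *din1Δ* have a single replicate number in common.

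With 1 *din1Δ* array, a value of *din1Δ* has no error of its own, and the wildtype strain and the mutation cannot be told apart; *dhp1-1* replicate 1 alone shares its slide. Dyes were not swapped, so dye effects that are alike on all arrays stay in the tiles alike. Cross-hybridization between repeats was not tested, since probe sequences were not used here.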
